A study of Mus musculus with 30 samples.

Results

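The genes described here are the nuclear genes for subunits of the mitochondrial respiratory chain and of ATP synthase, chosen by symbol alone: Ndufa, Ndufb, Ndufc, Ndufs and Ndufv for complex I, Sdha to Sdhd for complex II, Uqcr for complex III, Cox4 to Cox8 for complex IV and Atp5 for ATP synthase (complex V), with the Ndufaf assembly factors left out. The arrays named 82 of them among 16358 genes, and 78 were among the 11260 that entered the tests. By complex these 78 were 34 for complex I, 4 for complex II, 8 for complex III, 15 for complex IV, Ndufa4 among them, and 17 for complex V. The 4 that stayed out were the tissue-restricted isoforms Cox4i2, Cox7b2, Cox8b and Cox8c. Cox4i2 was well above background on 4 of 30 arrays and the other 3 on 0 of 30.

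RNA came from dendritic cells, which present antigen to T cells, derived from the bone marrow of C57BL/6 mice and selected with CD11c beads. In the knockout (KO) the mice carried CD11c-Cre and IRF-4 flox/flox alleles, and in the control CD11c-Cre alone, so both genotypes carry the transgene, whose promoter drives Cre in CD11c-expressing cells. Each genotype was studied unstimulated and after 6 and 24 h of lipopolysaccharide (LPS), the bacterial ligand of the receptor TLR4, in 6 groups of 5 arrays that the labels call biological replicates. Every array set Cy5-labelled sample RNA against a Cy3-labelled universal mouse reference, and a level below is log2(sample/reference), which orders samples for 1 gene and not genes against each other.

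The respiratory chain passes electrons from NADH (complex I) and succinate (complex II) through ubiquinone to complex III, cytochrome c and complex IV, which reduces oxygen. Complexes I, III and IV pump protons across the inner mitochondrial membrane, and ATP synthase uses the gradient to make ATP. Most subunits are encoded in the nucleus, a core set in mitochondrial DNA. Dendritic cells and macrophages activated through TLR4 are known for a shift from mitochondrial respiration towards glycolysis. Complex II also belongs to the Krebs cycle.

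3 features of the arrays bear on the results. Irf4 itself fell in KO cells relative to control cells, with mean log2 ratios at 0, 6 and 24 h of -1.49 ± 0.80, -0.11 ± 0.30 and -0.03 ± 0.44 in KO and 1.41 ± 0.24, 2.31 ± 0.24 and 2.14 ± 0.33 in control cells (SD, n = 5 each; exact two-sided permutation p = 0.00794, the smallest possible, at each time). In control cells replicate 3 at 6 h of LPS and replicate 2 at 24 h, on a slide of their own, were the 2 of 30 arrays whose nearest array over all genes lay in another group, in both cases control unstimulated replicate 1. The SD of the differences was 0.403 and 0.557 to that array, against 0.806 and 0.728 to the nearest of their own group. The arrays of a group also fell into close sets: 18 sets remained when arrays whose differences had an SD under 0.3 were joined, and the labels do not say whether they are separate cultures or mice. The p-values below treat the 30 arrays as separate samples and measure only the spread between them.

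The labelled cell type was checked against its markers. Of 10 dendritic cell markers 8 entered the tests, and their mean log2 ratio per array at 0, 6 and 24 h was 2.04 to 2.839, 2.871 to 3.331 and 2.708 to 3.135 in KO and 3.029 to 3.463, 2.878 to 3.786 and 3.206 to 3.765 in control cells. All KO arrays were thus below all control arrays at 0 and 24 h, and the genotypes overlapped at 6 h. limma called 3, 4 and 2 of the 8 lower in KO and 0 higher, against 7.13%, 5.88% and 8.44% of all genes lower. Cd209a was well above background on 3 of 30 arrays and Flt3 on 14. Macrophage markers (8 genes) overlapped between genotypes, at 2.652 to 3.831, 2.979 to 4.204 and 1.943 to 3.287 in KO and 2.475 to 3.648, 2.261 to 4.049 and 1.536 to 3.046 in control cells. Neutrophil markers (6 genes) were lower in KO on average with overlapping ranges, at 0.513 to 1.927, 0.671 to 2.247 and 0.566 to 2.269 against 1.498 to 3.089, 2.083 to 3.854 and 2.021 to 3.984 in control cells, with Elane at 0 of 30 arrays. Ltf and Ngp entered the tests only through control groups. Ltf was well above background on 2, 0 and 0 KO arrays and on 5, 5 and 5 control arrays. Ngp was so on 1, 0 and 0 against 4, 5 and 5. The lower KO mean of this list is thus partly set by the filter. The part of these differences in the results on the subunits was not tested, and in bulk RNA fewer cells of a type and less RNA per cell cannot be told apart.

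The promoters of several of these genes are described first, and whether their motifs bear on the levels below was not tested. RefSeq windows (GRCm38.p6, from 250 bases before to 50 after the start of transcription) were at hand for 67 of the 82 genes, 72 windows in all. The palindrome bound by nuclear respiratory factor 1 (NRF1) was in 17 of the 72 (23.6%), against 4.6% of all 32851 windows. The core CCGGAAG of ETS factors such as GABP was in 17 (23.6%), against 8.86%, and AAGATGGC, a core of YY1, was in 10 (13.9%), against 2.75%. Motifs were searched on both strands, and a match is a description of these letters only.

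The letters of 2 motifs that IRF proteins bind were no more frequent in these windows than in all windows. The composite of an ETS and an IRF element was in 0 of the 72 windows, against 2.72% of all windows. The core of the interferon response element was in 2 (2.78%, Ndufa9 and Ndufs3), against 3.44%. TCAAGGTCA, the site of estrogen-related receptors, was in 2 (2.78%, Atp5g3 and Sdhd), against 0.423%.

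The 120 bases before the start are given for 4 genes with large differences between KO and control cells, 5′ to 3′ on the gene's own strand. Capitals mark the ETS core in Uqcrh (chr4:116075071-116075190, minus strand), the estrogen-related receptor site in Atp5g3 (chr2:73911327-73911446, minus) and the NRF1 palindrome in Atp5k (chr5:108434400-108434519, minus), the first 2 on the opposite strand. Cox7a1 (chr7:30184051-30184170, plus) has none of the 6 motifs in its window.
Uqcrh: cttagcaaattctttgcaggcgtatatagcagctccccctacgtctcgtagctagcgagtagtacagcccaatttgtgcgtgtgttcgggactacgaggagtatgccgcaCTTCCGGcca
Atp5g3: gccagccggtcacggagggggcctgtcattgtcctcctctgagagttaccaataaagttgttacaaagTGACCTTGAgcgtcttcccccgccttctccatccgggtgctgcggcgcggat
Atp5k: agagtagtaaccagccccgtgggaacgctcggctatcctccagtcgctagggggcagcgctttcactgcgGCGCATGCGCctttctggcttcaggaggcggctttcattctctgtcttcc
Cox7a1: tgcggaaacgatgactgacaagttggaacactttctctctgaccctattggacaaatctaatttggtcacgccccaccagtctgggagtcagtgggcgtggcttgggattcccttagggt

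The subunit genes were bright and varied together. Their median log2 Cy5 signal was 14.15, against 9.26 over all genes tested, and 77 of the 78 lay above the latter. Across the 30 arrays, after the group means were taken out, 2 subunits of one complex had a median correlation of 0.608 and 2 of different complexes 0.575, while every 20th gene tested gave 0.004. These correlations are a description: the subunits share the arrays and a bright range of signal, where intensity-dependent effects would also be shared.

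The median level of the 78 subunits on each array summarises this. At 0, 6 and 24 h it averaged 0.071 ± 0.123, -0.139 ± 0.307 and 0.031 ± 0.265 in KO and 0.447 ± 0.205, 0.3 ± 0.212 and 0.071 ± 0.189 in control cells (SD, n = 5 each). In unstimulated cells the KO arrays (-0.07, 0.03, 0.007, 0.145 and 0.242) were all lower than the control arrays (0.38, 0.272, 0.258, 0.62 and 0.705). After 6 h the KO arrays stood at -0.293, -0.389, -0.4, 0.219 and 0.17 and the control arrays at 0.116, 0.045, 0.546, 0.363 and 0.428. The groups overlapped there, because KO replicates 4 and 5 were above control replicates 1 and 2, and the highest control array was replicate 3, 1 of the pair nearest to unstimulated cells. After 24 h the KO arrays (-0.146, -0.142, -0.196, 0.353 and 0.286) and control arrays (-0.035, -0.049, -0.107, 0.319 and 0.228) covered the same range.

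**Figure D1:**
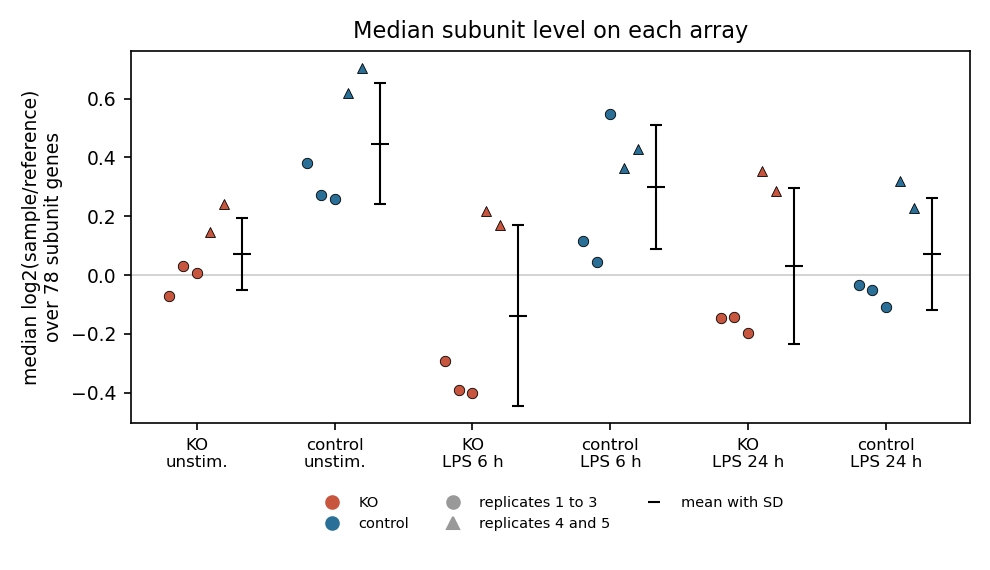
Median log2(sample/reference) over the 78 subunit genes on each array, by group; circles are replicates 1 to 3, triangles replicates 4 and 5, and the bar is the mean with its SD (n = 5). KO arrays lie below control arrays in unstimulated cells and cover the control range at 24 h, and replicates 4 and 5 lie above replicates 1 to 3 in most groups.

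Most of these genes were higher in replicates 4 and 5 than in replicates 1 to 3 in every group, 55 to 64 of the 78. Complex II differed: in control cells its median at 0, 6 and 24 h averaged 0.412, 0.126 and -0.096 in replicates 4 and 5, against 0.597, 0.38 and 0.126. In KO cells the values were 0.422, 0.029 and 0.173 against 0.433, -0.266 and 0.259. The median over the subunits of the difference between these replicates was 0.165, 0.531 and 0.511 at 0, 6 and 24 h in KO and 0.347, 0.165 and 0.394 in control cells, and 52 of 78 subunits (66.7%) were higher in all 6 groups, against 29.1% of all genes tested. Each side of the genotype comparisons below holds replicates 1 to 3 and replicates 4 and 5. In control cells at 6 h replicate 3 was the highest array (0.546), so low and high arrays are not balanced in that comparison. The labels do not say what distinguishes the replicates.

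In unstimulated cells subunit genes of complexes I, III, IV and V were lower in KO than in control cells, and 0 of the 4 of complex II were called. The median log2 difference was -0.296 over the 78 subunits, against -0.038 over all genes, and 71 of 78 were below 0. At an adjusted p under 0.05 (limma, adjusted over all genes tested) 13 subunits were lower, 16.7% of them against 7.13% of all genes, and 1 was higher, against 6.96%. The lower ones were 4 of complex I, 1 of complex III, 3 of complex IV and 5 of ATP synthase. In 20 subunits every KO array was lower than every control array (25.6%, against 9.46% of all genes), and in 0 every KO array was higher (against 8.73%). In replicates 1 to 3 alone the median was -0.255, and in replicates 4 and 5 alone -0.415.

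The largest difference was in complex IV, where 2 muscle isoforms moved in opposite directions. Cox7a1, the heart and skeletal muscle form of subunit VIIa, stood at -0.64, -0.51, -0.58, 0.19 and 0.38 in unstimulated KO arrays and at 1.26, 1.02, 0.97, 1.69 and 2.45 in control arrays. The groups did not overlap, and replicates 4 and 5 were the highest in both. Cox7a1 was 3.28-fold lower in KO (log2 difference -1.71, SE 0.42, limma adjusted p = 0.00573).

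Cox6a2, the muscle form of subunit VIa, stood at 2.01, 1.80, 1.76, 1.73 and 0.71 in unstimulated KO arrays and at 0.07, 0.73, 0.63, -1.99 and -1.65 in control arrays. Control replicates 4 and 5 were far below the other 3, and KO replicate 5 lay within the control range. Cox6a2 was the only subunit called higher, by 2.04 (SE 0.61, 4.12-fold, limma adjusted p = 0.0225), and that call was lost without KO replicate 1 or without control replicate 4 or 5 (adjusted p up to 0.0878). The genotype difference was 1.37 in replicates 1 to 3 and 3.04 in replicates 4 and 5.

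The widespread forms of these subunits did not pass the test in unstimulated cells. Cox6a1 differed by -0.06 (limma adjusted p = 0.895) and Cox7a2 by -0.81 (adjusted p = 0.102). Both muscle forms were well above background on all 30 arrays. Of 7 markers of stroma and muscle 4 entered the tests, with array means of -3.357 to -3.019 in KO and -3.078 to -2.668 in control unstimulated cells. Muscle creatine kinase (Ckm) and Myh1 were well above background on 12 of 30 arrays each, and Actc1 on 30.

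In complex III Uqcrh, the acidic hinge protein next to cytochrome c1, stood at -0.53, -0.35, -0.37, -0.18 and 0.22 in unstimulated KO arrays and at 0.59, 0.41, 0.43, 0.74 and 1.08 in control arrays. No KO array reached the lowest control array. The difference was -0.89 (SE 0.28, 1.85-fold, limma adjusted p = 0.0332), lost without any of 7 single arrays.

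ATP synthase had 5 of its 17 genes called lower. Atp5k, which encodes the membrane subunit e, was lower by 0.94 on the log2 scale (log2 difference -0.94, SE 0.28, adjusted p = 0.0223). Atp5o, for the oligomycin sensitivity protein of the peripheral stalk, stood at -0.17, -0.19, -0.13, -0.09 and -0.12 in KO and at 0.52, 0.30, 0.29, 0.77 and 0.79 in control arrays, a gap with no overlap (difference -0.67, SE 0.15, limma adjusted p = 0.00224). Atp5j2 (subunit f) differed by -0.68, Atp5g3 by -0.67 and Atp5j (coupling factor 6) by -0.43.

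Atp5g1, Atp5g2 and Atp5g3 encode the same mature subunit c of the membrane rotor. Atp5g3 stood at 0.64, 0.12, 0.27, 0.28 and 1.07 in unstimulated KO arrays and at 1.16, 0.86, 0.64, 1.503 and 1.54 in control arrays. KO replicate 5 lay within the control range and KO replicate 1 at its lower end, and the call (limma adjusted p = 0.0337) was lost without any of 6 single arrays. Atp5g1 and Atp5g2 were not called in unstimulated cells.

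In complex I the called genes included the accessory subunits Ndufc1 (-0.65, limma adjusted p = 0.0133), Ndufb10 (-0.63, adjusted p = 0.00733) and Ndufa6 (-0.42, adjusted p = 0.0335). Complex IV added Cox5b (-0.62) and Cox6c (-0.56), and in complex II none of the 4 genes passed the test (Sdha -0.03, Sdhb -0.08, Sdhc -0.25, Sdhd -0.46 with adjusted p = 0.183). Averaging the close sets of arrays, a choice made after seeing the data, left 3 calls, Cox5b and Atp5o among them, and a median of -0.347. With the Cy5 signal alone 3 were lower and 1 higher, and median centring in place of loess gave a median of -0.623 with 8 lower and 1 higher. Of all 11260 genes these settings called 1679 and 936 in either direction.

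After 6 h of LPS subunit genes of all 5 complexes were called lower in KO than in control cells. The median log2 difference was -0.413 over the subunits, against -0.012 over all genes, and 76 of 78 were below 0. limma called 21 lower in KO, 26.9% against 5.88% of all genes, and 1 higher, against 6.23%. The lower genes were 4 of complex I, 1 of complex II, 3 of complex III, 5 of complex IV and 8 of ATP synthase, and the medians were -0.346, -0.381, -0.298, -0.500 and -0.542 for complexes I to V. The genotypes' arrays did not overlap in 9 subunits lower in KO (11.5%, against 4.52% of all genes) and 1 higher (against 4.73%). Of the 13 genes lower in unstimulated KO cells 12 (92.3%) were among these 21 (57.1% of them), in other arrays of the same 2 genotypes; over all genes 350 were lower at both times, 43.6% of those lower in unstimulated cells and 52.9% of those lower at 6 h.

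**Figure D2:**
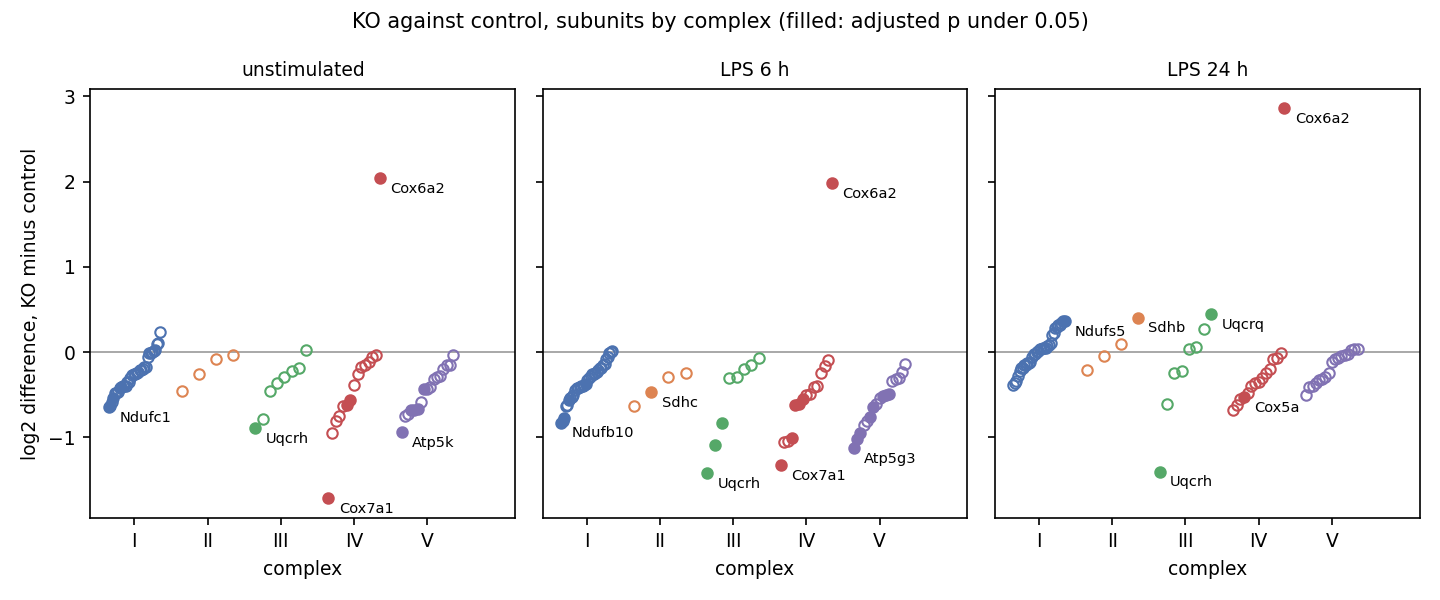
Log2 difference, KO minus control, of each subunit gene in unstimulated cells and after 6 and 24 h of LPS, ordered by size within complexes I to V; filled points passed an adjusted p under 0.05. Most points lie below 0 in unstimulated cells and at 6 h. At 24 h they spread around 0, except in complex IV, where all but Cox6a2 lie below it. Cox6a2 lies far above the others in all 3 panels.

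Uqcrh was at -0.99, -1.12, -1.30, -0.27 and -0.16 in KO and at 0.64, 0.30, 0.45, 0.99 and 0.89 in control arrays after 6 h. The groups were apart by replicate set as well, KO replicates 4 and 5 being the highest of theirs. Uqcrh was 2.68-fold lower (-1.42, SE 0.28, limma adjusted p = 0.00113), by 1.60 in replicates 1 to 3 and 1.15 in replicates 4 and 5 (differences -1.60 and -1.15).

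Atp5g3 was at -0.09, -0.56, -0.41, -0.10 and 0.18 in KO and at 0.59, 0.38, 1.62, 1.02 and 1.03 in control arrays after 6 h, without overlap (-1.12, 2.18-fold, limma adjusted p = 0.000647). Its paralog Atp5g1 differed by -0.49 (adjusted p = 0.00944), and Atp5g2 was not called. Atp5o differed by -0.76 (adjusted p = 0.000869), Atp5k by -1.02, Atp5j2 by -0.95, Atp5d (the delta subunit of the central stalk) by -0.64, Atp5pb (subunit b) by -0.51 and Atp5j by -0.50. Control replicate 3 was the highest control array for Atp5g3 and Atp5o, and without the 2 arrays near unstimulated cells Atp5g3 differed by -0.95 (adjusted p = 0.00186) and Atp5o by -0.66 (adjusted p = 0.00281).

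The small subunits Uqcr10 (-1.09, limma adjusted p = 0.0314) and Uqcr11 (-0.83, adjusted p = 0.00434) of complex III were lower as well. Uqcr11 stood at -0.91, -1.34, -1.25, -0.71 and -0.42 in KO and at -0.29, -0.46, 0.07, 0.13 and 0.09 in control arrays, where only KO replicate 5 lay within the control range. In complex II Sdhc, a membrane anchor, was the 1 gene called (-0.47, adjusted p = 0.00456). Sdhd differed by -0.635 (adjusted p = 0.063), Sdha by -0.29 and Sdhb by -0.25, none of them called.

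In complex IV Cox6a2 remained higher in KO after 6 h, at 1.23, 1.05, 1.04, 0.95 and 1.02 against 0.47, 0.76, -2.34, -1.88 and -1.61 in control arrays. The groups did not overlap, but control replicates 3 to 5 lay far below 1 and 2. The difference was 1.98 (3.95-fold, limma adjusted p = 0.031), and without the 2 arrays near unstimulated cells 1.63 (adjusted p = 0.0641). The call was also lost without any 1 of 6 single arrays, KO replicates 1 to 3 and control replicates 3 to 5 (adjusted p up to 0.0921), and with only the arrays compared.

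Cox7a1 was at -0.70, -0.52, -0.60, 1.49 and 1.12 in KO and at 1.15, 0.96, 1.33, 1.73 and 2.24 in control arrays after 6 h. KO replicates 4 and 5 lay within the control range and replicates 1 to 3 far below it, so the difference of -1.32 (2.50-fold, limma adjusted p = 0.037) was -1.75 in replicates 1 to 3 and -0.68 in replicates 4 and 5. Cox7a2 differed by -1.01 (adjusted p = 0.0429), Cox6c by -0.61, Cox5b by -0.61 and Cox5a by -0.55. Cox6b1 missed the threshold (-1.06, adjusted p = 0.0539), and Cox4i1 (-0.24), Cox6a1 (-0.50), Cox8a (-0.40), Cox7a2l (-0.16), Cox6b2 (-0.10) and Ndufa4 (-0.41) were not called.

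In complex I the called genes included Ndufb10 (-0.83, limma adjusted p = 0.000806), Ndufc1 (-0.77) and Ndufa5 (-0.56). With close sets averaged 0 of the 78 subunits were called at 6 h (median -0.357). In the fit over all arrays 39 were lower and 1 higher at an unadjusted p under 0.05, against 1437 and 1419 of all 11260 genes. Using only the 10 arrays of the 2 groups 9 were called, against 20 in unstimulated cells fitted in the same way, and whether the genotype difference changed between these times is given by the test of the response below. In the other settings median centring gave 19 lower with a median of -0.731, and leaving out single arrays gave 14 to 31 calls. The 2 arrays near unstimulated cells changed the median to -0.328 when left out, with 17 lower and 0 higher, and the calls of Cox6a2, Uqcr10, Cox6c, Cox7a2 and Atp5pb were lost. The shares of all genes called in these settings are not given here.

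After 24 h of LPS the median over all subunits was close to equal between genotypes, while that of complex IV stayed lower in KO. The median difference was -0.071, against -0.005 over all genes, and 49 were below 0. For complexes I to V the medians were 0.027, 0.022, -0.092, -0.355 and -0.111. In complex IV 14 of 15 genes were below 0, against 14 of 17 in complex V and 15 of 34 in complex I. limma called 2 lower, 2.56% against 8.44% of all genes, and 4 higher, 5.13% against 6.97%. The higher ones were Cox6a2, Uqcrq (0.45, adjusted p = 0.0208), a small subunit of complex III, Sdhb (0.41, adjusted p = 0.0367), the iron-sulfur subunit of complex II, and Ndufs5 (0.36, adjusted p = 0.0115), an accessory subunit of complex I. The lower ones were Uqcrh and Cox5a (-0.53, adjusted p = 0.0239). The arrays of the genotypes did not overlap in 5 subunits lower in KO (6.41%, against 6.55% of all genes) and 5 higher (against 5.65%).

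Uqcrh stood at -1.12, -1.15, -1.36, 0.19 and 0.28 in KO and at 0.56, 0.73, 0.30, 1.23 and 1.03 in control arrays after 24 h. All KO arrays were below all control arrays, KO replicates 4 and 5 by little. Uqcrh was 2.64-fold lower (-1.40, SE 0.28, limma adjusted p = 0.00101), and a second probe of the gene differed by -0.867, -1.385 and -1.444 at 0, 6 and 24 h. Its difference was -1.74 in replicates 1 to 3 and -0.90 in replicates 4 and 5.

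Cox6a2 stood at 1.79, 1.91, 1.82, 0.50 and 0.61 in KO and at -0.38, -3.19, -0.10, -2.06 and -1.93 in control arrays after 24 h. The groups did not overlap in either replicate set (7.25-fold, log2 difference 2.86, SE 0.61, limma adjusted p = 0.00169). It was the 1 subunit called higher in KO at all 3 times, each time in other arrays.

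Ndufs5 stood at 0.52, 0.52, 0.43, 0.48 and 0.61 in KO and at 0.20, -0.16, 0.12, 0.35 and 0.24 in control arrays after 24 h, with no overlap. Cox7a1 (-0.68, adjusted p = 0.318), Atp5g3 (-0.11) and Atp5o (0.03) did not pass limma's test at this time, and neither did the other tissue forms, Cox4i1 (-0.01), Cox6a1 (-0.24), Cox6b1 (-0.55), Cox6b2 (-0.37), Cox7a2 (-0.47), Cox7a2l (-0.08) and Cox8a (-0.355).

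**Figure D3:**
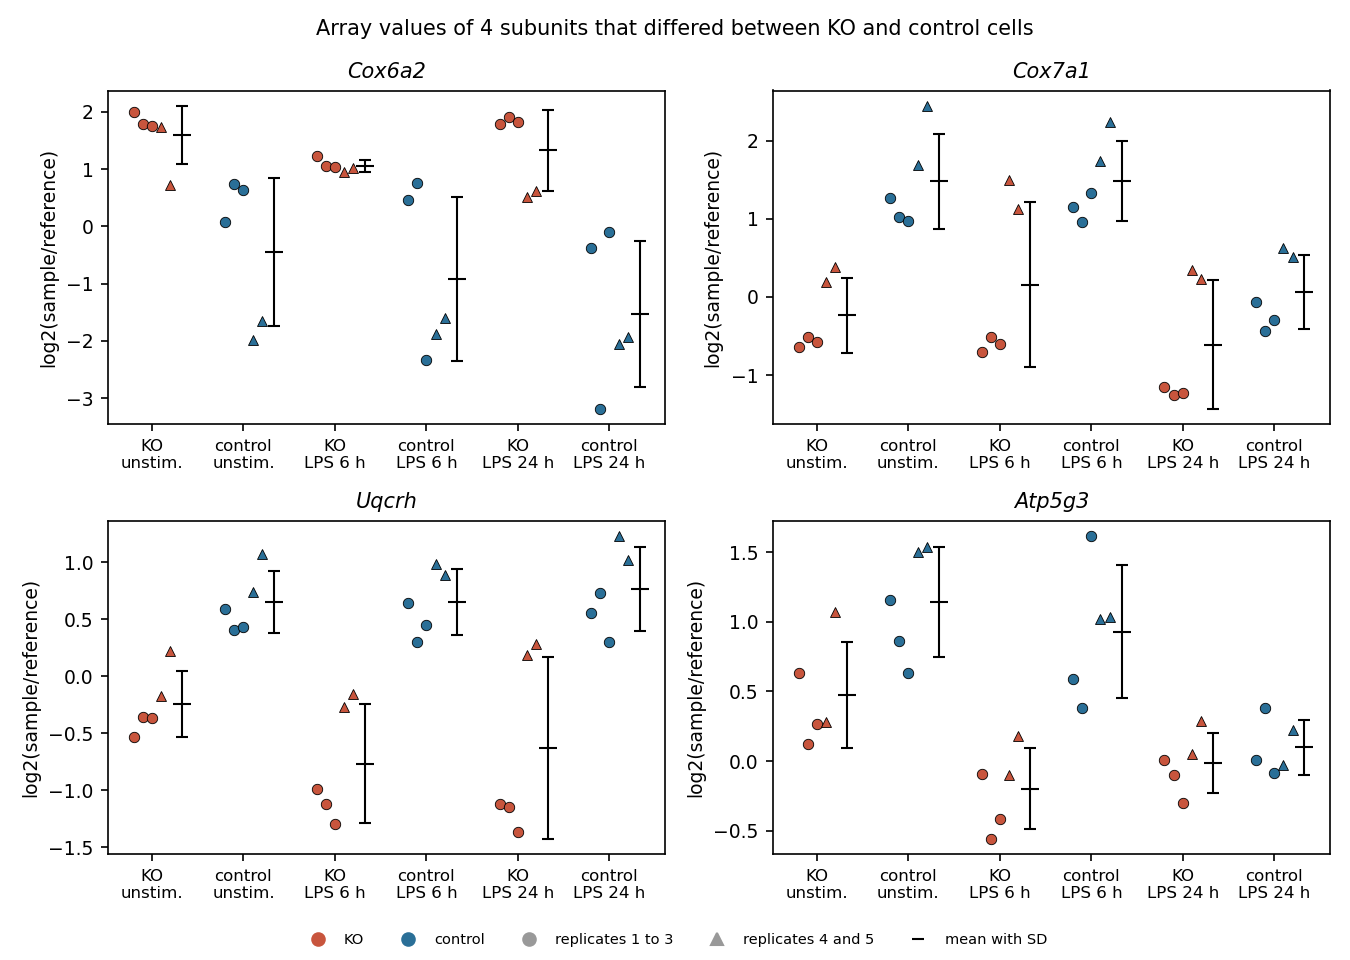
Level, as log2(sample/reference), of Cox6a2, Cox7a1, Uqcrh and Atp5g3 on every array of the 6 groups; circles are replicates 1 to 3, triangles replicates 4 and 5, and bars the mean with its SD (n = 5). Cox6a2 is higher and Uqcrh lower in KO at all 3 times, and the gap in Atp5g3 seen in unstimulated cells and at 6 h is absent at 24 h.

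With close sets averaged 0 subunits were called at 24 h (median -0.052). In the fit over all arrays 7 were lower and 5 higher at an unadjusted p under 0.05, against 1622 and 1452 of all 11260 genes. Without the 2 arrays near unstimulated cells the call of Uqcrq was lost (0.31, adjusted p = 0.0674). Slides hold 1 to 4 arrays of a group and none holds both genotypes at one treatment, so the genotype difference could not be taken within a slide. With the slide as a term in the fit the median was -1.434 in unstimulated cells (3 higher, 53 lower), -1.264 at 6 h (1 higher, 42 lower) and 1.209 at 24 h (47 higher, 6 lower), and Cox6a2 turned to -2.71 and Uqcrh to 0.38 at 24 h. In that fit the genotype contrast rests on slides that join different treatments, and the share of all genes called in it is not given here.

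In KO cells subunit genes were lower after 6 h of LPS, mainly in replicates 1 to 3. The median log2 difference of LPS 6 h over unstimulated KO cells was -0.295, against 0.025 over all genes, and 64 of 78 were below 0. In replicates 1 to 3 alone the median was -0.386, with 74 of 78 below 0. In replicates 4 and 5 alone it was -0.052, with 46 below 0 and 32 above. limma called 14 lower, 17.9% against 12.4% of all genes, and 1 higher, against 14.2%. The lower genes were 7 of complex I, 2 of complex II, 1 of complex III, 0 of complex IV and 4 of ATP synthase. LPS arrays did not overlap unstimulated ones in 12 lower subunits (15.4%, against 10.9% of all genes) and 1 higher (against 13.9%). Same-numbered arrays of these 2 groups deviated together (correlations of 0.109 to 0.657), which does not show that the numbers pair samples. With the replicate as a block 35 were lower and 2 higher (44.9% and 2.56%, against 20.8% and 21.6% of all genes).

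In KO cells after 24 h of LPS the median difference from unstimulated cells, which are the same arrays as above, was -0.061, against 0.017 over all genes. It was -0.17 in replicates 1 to 3 alone and 0.11 in replicates 4 and 5 alone. limma called 4 lower, 5.13% against 7.84% of all genes, and 0 higher, against 10.2%. These were Uqcr11 (-0.82), Ndufs1 (-0.68), Ndufb11 (-0.51) and Atp5g2 (-0.38). The share called lower was thus below that of all genes. Arrays did not overlap in 6 lower subunits (7.69%, against 9.08% of all genes) and 2 higher (against 12.1%).

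In control cells more subunits were called at 24 h than at 6 h, both times against the same unstimulated arrays. At 6 h the median was -0.145, against 0.007 over all genes, with 4 lower (5.13% against 4.51% of all genes) and 0 higher (against 7.15%). In 0 subunits did all 5 arrays at 6 h lie beyond the unstimulated ones (against 1.63% of all genes lower and 2.85% higher). At 24 h it was -0.343, against 0.016, with 16 lower (20.5% against 5.07%) and 0 higher (against 7.23%), of which 5 were in complex I, 2 in each of complexes II, III and IV and 5 in ATP synthase. Arrays did not overlap in 15 lower subunits (19.2%, against 4.26% of all genes) and 0 higher (against 5.68%). At 24 h same-numbered arrays of the 2 groups deviated together (correlations of 0.178 to 0.732). With the replicate as a block 36 were then lower and 1 higher (46.2% and 1.28%, against 10.6% and 13.9% of all genes).

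**Figure D4:**
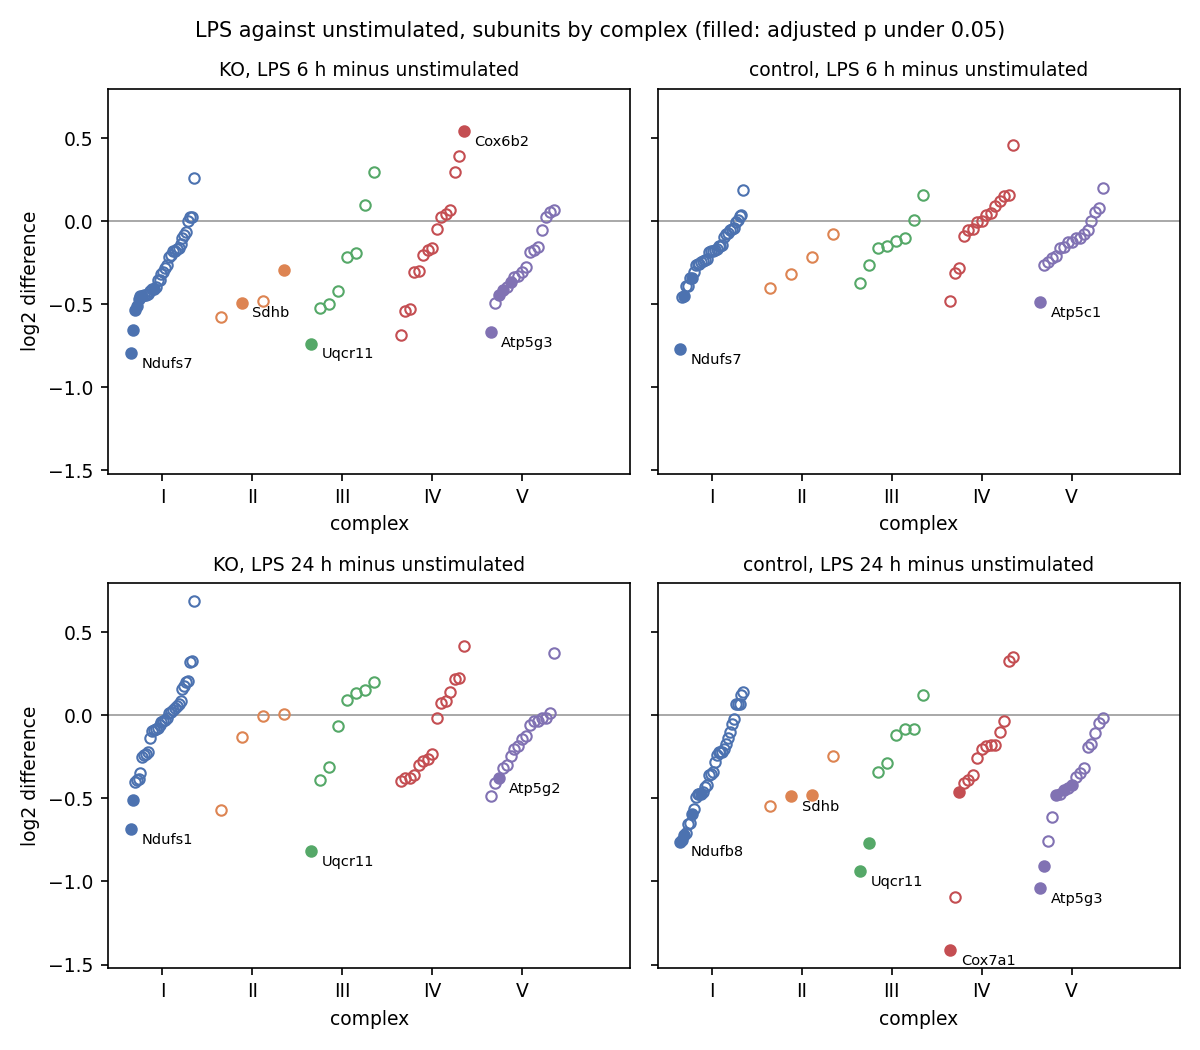
Log2 difference, LPS minus unstimulated, of each subunit gene in KO cells (left) and control cells (right) after 6 h (top) and 24 h (bottom), ordered by size within complexes I to V; filled points passed an adjusted p under 0.05. KO cells have more filled points at 6 h, control cells at 24 h, and complex IV has few in any panel.

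In complex I the core subunits Ndufs1 and Ndufs7 were called lower after LPS, while Ndufs8 and Ndufv1, which also hold cofactors of the electron path, passed no test against unstimulated cells (-0.41 and -0.42 at 6 h in KO cells, limma adjusted p = 0.234 and 0.0762). Ndufs1, the largest subunit of the complex, which holds several iron-sulfur clusters, stood at -0.43, -0.61, -0.36, -0.44 and -0.16 in unstimulated KO arrays, at -0.88, -0.84, -0.95, -0.84 and -0.75 after 6 h and at -0.92, -1.14, -1.10, -1.24 and -1.03 after 24 h. Every LPS array was below every unstimulated array. The differences from unstimulated KO cells were -0.45 at 6 h (SE 0.13, limma adjusted p = 0.00981) and -0.68 at 24 h (adjusted p = 0.000401).

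In control cells Ndufs1 stood at -0.25, -0.25, -0.50, -0.25 and -0.47 unstimulated, at -0.90, -1.11, -0.13, -0.75 and -1.06 after 6 h and at -1.13, -0.94, -1.20, -1.07 and -0.99 after 24 h. The 6 h array that lay above all the unstimulated ones was replicate 3. The differences were -0.45 at 6 h (limma adjusted p = 0.021; -0.61 and 2.4e-05 without the 2 arrays near unstimulated cells) and -0.72 at 24 h (adjusted p = 0.000727).

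Ndufb11, an accessory subunit of the membrane arm, was lower after LPS in both genotypes. In KO cells it stood at 0.54, 0.48, 0.34, 0.52 and 0.44 unstimulated, at 0.06, -0.15, -0.15, -0.05 and 0.04 after 6 h and at -0.04, -0.02, -0.04, -0.12 and -0.03 after 24 h, with no overlap between LPS and unstimulated arrays (-0.51 at 6 h, limma adjusted p = 8.19e-05, and -0.51 at 24 h, adjusted p = 0.000141). In control cells it was lower by 0.34 at 6 h (difference -0.34, adjusted p = 0.0107) and 0.47 at 24 h (-0.47, adjusted p = 0.000918). Ndufb11 in KO cells at 6 h was also the 1 LPS call that remained with close sets averaged.

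Ndufs7, the core subunit that holds the last iron-sulfur cluster before ubiquinone, was lower at 6 h in both genotypes. In KO cells it stood at -0.63, -0.40, -0.46, -0.44 and -0.64 unstimulated, at -1.22, -1.28, -1.44, -1.40 and -1.23 after 6 h and at -0.60, -0.55, -0.60, -0.82 and -0.69 after 24 h. All 6 h arrays lay below all others. The difference at 6 h was -0.80 (SE 0.17, limma adjusted p = 0.000678) and that of 24 h over 6 h 0.66 (adjusted p = 0.0128).

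In control cells Ndufs7 stood at -0.27, -0.14, -0.23, -0.37 and -0.51 unstimulated, at -1.31, -1.39, -0.03, -1.23 and -1.40 after 6 h and at -0.75, -0.53, -0.72, -0.78 and -0.83 after 24 h. Replicate 3 at 6 h was above all other arrays of the gene, and the 4 others were the lowest. The 6 h difference was -0.77 (limma adjusted p = 0.00313) with this array and -1.03 without the 2 arrays near unstimulated cells (adjusted p = 1.01e-09). At 24 h it was -0.42 (adjusted p = 0.0979), not called.

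**Figure D5:**
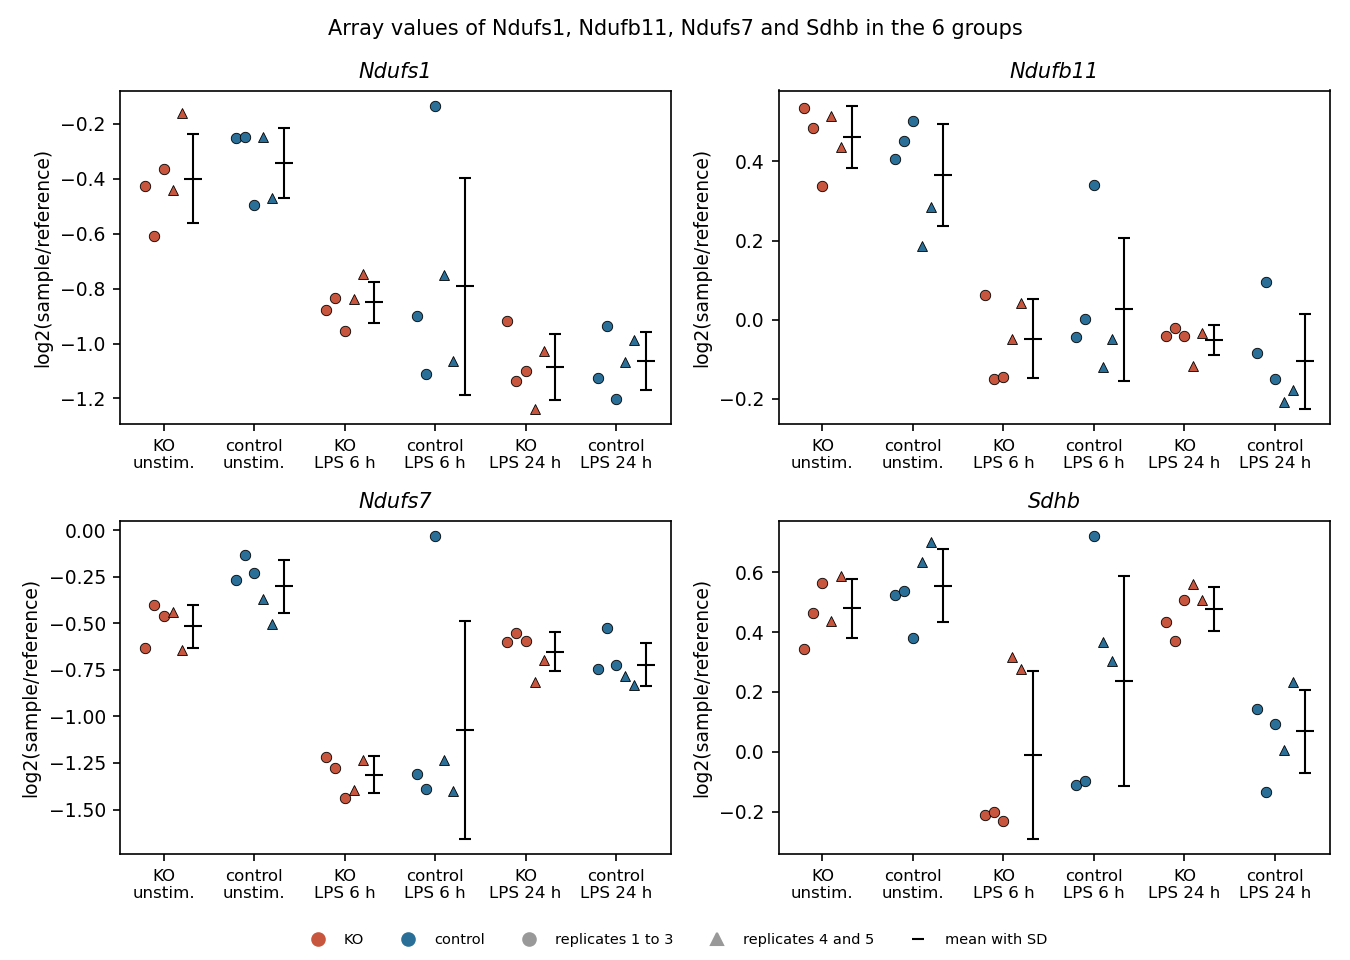
Level, as log2(sample/reference), of Ndufs1, Ndufb11, Ndufs7 and Sdhb on every array of the 6 groups; circles are replicates 1 to 3, triangles replicates 4 and 5, and bars the mean with its SD (n = 5). In all 4 genes control LPS 6 h replicate 3 stands above the other arrays of its group, and Sdhb at 24 h is at its unstimulated level in KO but not in control cells.

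Of the other complex I genes, Ndufb10 (-0.66), Ndufa13 (-0.53), Ndufa5 (-0.47) and Ndufs5 (-0.41) were lower in KO cells after 6 h. Ndufa13, also known as GRIM-19, is an accessory subunit. In control cells after 24 h Ndufb8 (-0.76, limma adjusted p = 0.0494, lost without any of 19 single arrays), Ndufa5 (-0.75, adjusted p = 0.000362) and Ndufc1 (-0.60) were lower. Ndufs5 rose again between 6 and 24 h in KO cells (0.39, adjusted p = 0.013).

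In complex II Sdhb and Sdhc had LPS calls. Sdhb stood at 0.34, 0.47, 0.56, 0.44 and 0.59 in unstimulated KO arrays, at -0.21, -0.20, -0.23, 0.32 and 0.28 after 6 h and at 0.43, 0.37, 0.51, 0.56 and 0.51 after 24 h. After 6 h replicates 1 to 3 lay far below and replicates 4 and 5 just below the unstimulated arrays, and at 24 h all were back among them. The difference was -0.49 at 6 h (limma adjusted p = 0.00695) and -0.0036 at 24 h (adjusted p = 0.99), and 24 h over 6 h gave 0.49 (adjusted p = 0.0226).

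In control cells Sdhb stood at 0.52, 0.54, 0.38, 0.64 and 0.70 unstimulated, at -0.11, -0.10, 0.72, 0.37 and 0.30 after 6 h and at 0.14, -0.13, 0.09, 0.01 and 0.23 after 24 h. At 24 h all arrays were below the unstimulated ones (-0.49, limma adjusted p = 0.0164). At 6 h replicate 3 was the highest of all and the difference of -0.32 was not called (adjusted p = 0.127).

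Sdhc was lower in KO cells at 6 h (-0.29, limma adjusted p = 0.0485, lost without any of 22 single arrays) and in control cells at 24 h (-0.48, adjusted p = 0.00506). Sdha, the flavoprotein, and Sdhd, the second anchor, passed no test. The LPS differences of Sdha were -0.48 and -0.57 in KO and -0.22 and -0.55 in control cells at 6 and 24 h.

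In complex III Uqcr11 was the gene with the largest LPS difference in KO cells, at -0.29, -0.30, -0.31, -0.25 and 0.21 unstimulated, -0.91, -1.34, -1.25, -0.71 and -0.42 after 6 h and -1.16, -1.28, -1.25, -0.74 and -0.62 after 24 h. LPS arrays lay below all unstimulated arrays at both times (-0.74 with limma adjusted p = 0.00515, and -0.82 with adjusted p = 0.00348). In control cells it was lower at 24 h (-0.94, adjusted p = 0.00229) and not called at 6 h. Uqcrc1, a core protein of the matrix side, was lower in control cells at 24 h (-0.77, adjusted p = 0.0127).

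Complex IV had few LPS calls. Cox7a1 stood at -0.06, -0.44, -0.30, 0.62 and 0.51 in control arrays after 24 h, against the unstimulated 0.97 to 2.45, without overlap (-1.41, limma adjusted p = 0.0257, lost without any of 5 single arrays). Its 6 h difference in control cells was 0.002, and in KO cells it was not called at 6 h (0.39) or 24 h (-0.38). Cox5b was lower in control cells at 24 h (-0.46), and Cox6b2, known as a testis isoform, was higher in KO cells at 6 h (0.54, adjusted p = 0.0414), at 0.95 to 1.77 against 0.61 to 0.87 in unstimulated arrays.

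Cox6b2 was the dimmest subunit tested, with a mean log2 Cy5 of 8.55, and its call was lost without any of 6 single arrays. The widespread Cox6b1 differed by 0.04 at 6 h in KO cells (limma adjusted p = 0.946). Cox6a2 was not called in any LPS comparison: it differed by -0.54 and -0.27 in KO and by -0.48 and -1.09 in control cells at 6 and 24 h. Cox4i1, Cox6a1, Cox7a2, Cox7a2l, Cox8a and Ndufa4 were not called either.

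For ATP synthase the LPS calls lay in the rotor and the stalks. Atp5g3 was lower in control cells at 24 h, at 0.01, 0.38, -0.09, -0.03 and 0.23 against 1.16, 0.86, 0.64, 1.503 and 1.54 in unstimulated arrays, without overlap (-1.04, 2.05-fold, limma adjusted p = 0.00206), and in KO cells at 6 h (-0.67, adjusted p = 0.0189). The paralogs Atp5g1 and Atp5g2 were lower in KO cells at 6 h (-0.45 and -0.37), Atp5g2 also at 24 h (-0.38, adjusted p = 0.00659), and Atp5g1 in control cells at 24 h (-0.45). All 3 genes of subunit c thus had a call after LPS.

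Atp5o was at -0.41, -0.45, -0.55, -0.20 and -0.26 in control arrays after 24 h, below all unstimulated arrays (-0.91, limma adjusted p = 0.000263). Atp5pb (-0.48) and Atp5j (-0.42) were lower in the same comparison. Atp5c1, the gamma subunit of the central stalk, was lower at 6 h in KO (-0.41) and control cells (-0.49, adjusted p = 0.00749), where it differed by -0.64 without the 2 arrays near unstimulated cells.

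Between 6 and 24 h of LPS the median difference had opposite signs in the 2 genotypes. In KO cells the median of 24 h over 6 h was 0.158, with 3 genes higher (Ndufs7, Sdhb and Ndufs5, 3.85% against 3.54% of all genes) and 0 lower (against 4.2%). In control cells it was -0.181, with 6 lower (Cox7a1, Atp5g3, Uqcr11, Atp5o, Ndufa5 and Sdhc, 7.69% against 2.18%) and 0 higher (against 3.29%). In KO cells same-numbered arrays deviated together (correlations of 0.792 to 0.875). With the replicate as a block 15 were higher and 2 lower there (19.2% and 2.56%, against 8.83% and 9.11% of all genes). Arrays did not overlap in 5 higher and 0 lower subunits in KO cells (against 5.59% and 6.11% of all genes) and in 0 higher and 5 lower in control cells (against 2.35% and 1.67%).

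The test of the difference in response, KO minus control, called none of the 78 subunits. At 6 h the median difference of responses was -0.109, with 0 calls by limma and 0.435% of all genes called. At an unadjusted p under 0.05 it was also 0, against 524 higher and 380 lower of all 11260 genes. At 24 h the median was 0.252 over the subunits and 0.014 over all genes, 67 of 78 were above 0, and limma called 0 (0.879% of all genes). At an unadjusted p under 0.05 11 were higher and 0 lower, against 651 and 614 of all 11260 genes. The largest of the 11 by p was Ndufa5 (0.67, SE 0.18, adjusted p = 0.0637), followed by Atp5o (0.70, adjusted p = 0.111). The median difference of responses was -0.285 at 6 h and 0.123 at 24 h in replicates 1 to 3 alone. In replicates 4 and 5 alone it was 0.15 and 0.424, so its sign at 6 h differed between the replicate sets. In this fit a different timing in KO and control cells was thus not shown for any single subunit.

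Limits of the LPS comparisons lay in the same places. With close sets averaged limma called 1 subunit at 6 h in KO cells (median -0.137) and 0 in each other LPS comparison. Without the 2 arrays near unstimulated cells 13 were lower and 1 higher in control cells at 6 h and 23 lower at 24 h. At 24 over 6 h 2 were lower and 1 higher, and the calls of Cox7a1, Uqcr11, Ndufa5 and Sdhc were lost. With the slide as a term 34, 52 and 17 were lower. Such refits can change the calls over all genes too, and the shares of all genes called in them are not given here. Within single slides the median was -0.427 for 6 h in KO cells (replicate 1 against 3, 4 and 5), -0.619 for 6 h in control cells (replicates 1 and 2 against 4 and 5) and -0.482 for 24 over 6 h in control cells (replicates 1 and 3 against 5), where LPS and the higher level of replicates 4 and 5 cannot be told apart, and -0.565 between the 2 arrays near unstimulated cells.

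Genes that work with these complexes, from lists chosen with earlier results known, were tested in the same fit. Of 32 assembly factors tested 6 were higher and 1 lower in KO cells after 6 h of LPS (18.8% higher, against 14.2% of all genes), and 5 higher and 0 lower after 24 h (15.6%, against 10.2%). In control cells 4 were higher and 1 lower at 6 h (12.5%, against 7.15%) and 2 higher and 0 lower at 24 h (6.25%, against 7.23%). Cox17, the copper chaperone of complex IV, rose by 1.03 in KO (limma adjusted p = 0.000114) and 0.71 in control cells (adjusted p = 0.00757) at 24 h, and Sco1, which passes copper to the complex, by 1.30 in control cells (adjusted p = 0.0331). Against control cells 3 assembly factors were lower in unstimulated KO cells, Cox17 (-0.55), Cox20 (-0.40) and Foxred1 (-0.37), 1 at 6 h (Cox20, -0.48), and 1 was higher at 24 h (Coa7, 0.60). These were 9.38% lower when unstimulated and 3.12% lower at 6 h, against 7.13% and 5.88% of all genes, and 3.12% higher at 24 h, against 6.97%.

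Of 6 partners of complexes III and IV, Higd2a, which binds complex IV, was lower in KO at 0, 6 and 24 h (-0.68, -0.76 and -0.76, limma adjusted p = 0.00192, 0.000764 and 0.000626). Cyc1, the cytochrome c1 that Uqcrh binds, was lower in unstimulated KO cells (-0.69, adjusted p = 0.0348). Higd1a was higher after LPS in KO cells, by 0.60 at 24 h (adjusted p = 0.0134). None of the 13 mitochondrially encoded subunits was named on the arrays.

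Of 17 Krebs cycle genes 3 were lower and 0 higher after 24 h of LPS in KO cells (17.6% lower, against 7.84% of all genes), and 4 lower and 0 higher in control cells (23.5%, against 5.07%). Idh1, the cytosolic isocitrate dehydrogenase, which the list holds beside the mitochondrial forms, fell by 1.41 and 1.18 in KO and control cells (limma adjusted p = 0.000978 and 0.00837), Idh2 by 0.84 and 1.16, and Idh3g, a subunit of the NAD-dependent enzyme, by 0.83 and 0.61. Dld, the E3 subunit of several dehydrogenases, was higher in KO than in control cells by 0.58 at 6 h (adjusted p = 0.000348) and 0.57 at 24 h (adjusted p = 0.000315), and Mdh1 lower by 0.43 at 6 h (log2 difference -0.43).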

How the data were processed

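The deposited scanner files, 1 for each of 30 two-colour Agilent arrays on 9 slides, hold spot intensity from Feature Extraction 10.7.3.1 and its log10 ratio, per the file headers. The authors' deposited table of log2 ratios, for which the submitters' processing notes name limma, correlated with the ratios computed here at r of 0.999885 to 0.999998.

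Background was corrected by normexp with an offset of 50, ratios were normalized within arrays by loess with the 1639 control spots at weight 0, flagged spots were left out and the spots of a probe averaged. Of 41174 probes 22951 were named through the RefSeq table (GRCm38.p6) and 18223 were not, giving 16358 genes, each represented by its probe brightest in Cy5. A gene was tested if its Cy5 signal was well above background on every array of some group (5 arrays), which left 11260. The median Cy5 signal was 101 to 151 and 44.8% to 66.1% of probes were well above background; the number of arrays limits the precision.

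limma 3.58.1 in R 4.3.3 fitted 1 mean per group over all 30 arrays (24 residual degrees of freedom), and p-values of each of 11 comparisons were adjusted by Benjamini-Hochberg over all genes tested, with 0.05 as the threshold. The fit was tested on simulated data. The subunits and the 16 gene lists were chosen with earlier results of these data known. Every subunit tested is counted, and 1 of those called is not reported here; those given values are the 4 called subunits that rose most and the 4 that fell most in a comparison, the extremes of each complex, tissue isoforms, paralogs and complex II, and the other called subunits, Ndufs8 and Ndufv1 are named after their values were seen.

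Labels number the replicates 1 to 5 in each group. Same-numbered arrays deviated together, at correlations over 0.1 in all 5 pairs, for 6 h against unstimulated and 24 h against 6 h in KO cells and for 24 h against unstimulated in control cells. Correlations of differently numbered arrays are not given here, so these values do not show that the numbers pair samples. Each array was counted as 1 sample, as labelled; all 60 pairs within groups differed by more than repeated spots of 245 probes, which leaves out labelling and hybridisation and so does not show that they are separate samples. Alternatives were other normalizations, the authors' table, Cy5 alone, other filters and probes, slide or replicate as a block, and arrays left out.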

Additional observations from a re-analysis of the deposited data

Results flagged for a closer look

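For 35 items, which are named subunits, Irf4 and the median over all subunits, the 6 groups gave 210 sets of 5 arrays. The gap of 1 array to its nearest neighbour exceeded 0.71 of the group's range in 10 sets, or 4.76%. By chance about 1 in 20 would do so. Values are log2 ratios. Control LPS 6 h replicate 3 stood above the other arrays of its group in 3 genes: Atp5g1 was 0.6285 against a nearest value of -0.0688, Ndufb11 0.3404 against 0.0015 and Ndufs7 -0.0299 against -1.234. Control LPS 24 h replicate 2 was low for Uqcrq, at -0.4896 against 0.1668. These are the 2 arrays that lay nearest to an unstimulated array over all genes.

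In unstimulated KO cells replicate 5 was low for Cox6a2 (0.714 against 1.7306) and high for Uqcr11 (0.2117 against -0.2453), replicate 4 was high for Uqcrq (0.5724 against 0.3703), and replicate 1 was low for Ndufb10 (-0.1649 against 0.0269). KO LPS 24 h replicate 4 was low for Ndufb11 (-0.1166 against -0.0408). Control unstimulated replicate 5 was low for Cox6a1 (-0.0744 against 0.5842).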

How the results depend on the processing

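Counts are of subunits called in either direction. The share of all genes called can change with the setting as well. All genes are given below only for some counts of the replicate block and for counts at an unadjusted p. The authors' table, the mean over probes, no filter and a filter on all 30 arrays left all 11 counts within 1.5 times. Agilent's own ratio gave 5 for 24 over 6 h in KO. Median centring put the median of all genes at -0.109 between genotypes at 6 h, against -0.012 with loess. For 6 h of LPS in KO that median was 0.025 with loess, -0.102 with median centring and -0.092 with Cy5 alone. Median centring gave 9 and 2 between genotypes at 0 and 24 h, 1, 0 and 0 for 6 h, 24 h and 24 over 6 h of LPS in KO, and 0, 4 and 1 in control cells. Cy5 alone gave 4 between genotypes at 0 h, 23 and 12 for 6 and 24 h in KO and 2 for 24 over 6 h in control cells. The slide block gave 56, 43 and 53 between genotypes, 2, 63 and 62 in KO, 35, 53 and 17 in control cells and 62 for the 24 h difference in response. The replicate block gave 40, 48 and 24, then 37, 16 and 17, then 11, 37 and 18, and 8 for that difference. For the 24 between genotypes 8.97% of subunits were higher and 21.8% lower, against 12.3% and 14.7% of all genes. For the 16 at 24 h in KO 6.41% were higher and 14.1% lower, against 17.3% and 15.8%. For the 8 in the difference 10.3% were higher and 0% lower, against 1.97% and 2.56%. Without the 2 arrays near unstimulated cells there were 9 for 24 over 6 h in KO, 14 and 3 for 6 h and 24 over 6 h in control cells and 1 for the 24 h difference. With only the arrays compared there were 9 between genotypes at 6 h, 7 and 6 for 24 h and 24 over 6 h in KO, and 0 and 0 for 6 h and 24 over 6 h in control cells. For these last 2 the limma fit over all arrays gave 9 and 1, and 14 and 2, lower and higher at an unadjusted p under 0.05. Of all 11260 genes it gave 1210 and 1542, and 911 and 1158. Close arrays averaged, chosen after seeing the data, gave 3, 0 and 0, then 1, 0 and 0, then 0, 0 and 0. Slide plus a term for replicates 4 and 5, also chosen then, gave 1, 0 and 2 between genotypes, 5, 0 and 0 in KO and 16 and 12 for 6 h and 24 over 6 h in control cells.

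Leaving out single arrays gave 8 to 18, 14 to 31 and 3 to 6 between genotypes, 12 to 20, 4 to 6 and 2 to 8 in KO, 3 to 13, 10 to 20 and 3 to 7 in control cells, and 0 to 0 and 0 to 1 for the difference in response. Leaving out control LPS 6 h replicate 3 gave the 13 for 6 h in control cells and the 8 for 24 over 6 h in KO, and also the 18 and both 20s. The 8 between genotypes at 0 h came without KO replicate 1 or control replicate 4 or 5. Irf4 lost its call at 6 h with the slide block (-1.9588) and at all times with the added term (-1.6178, -1.4669 and -2.9895).

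With the slide block directions turned for Sdha at 0 h between genotypes (1.3858) and at 24 h for Atp5g1 (0.6605), Atp5g3 (1.5821), Cox4i1 (0.998), Cox6a2 (-2.7139), Cox6b1 (2.3516), Cox7a2 (2.2225), Ndufa4 (3.7244), Sdhd (1.6697) and Uqcrh (0.3838). They turned for 24 h of LPS in KO for Atp5g3 (1.3045), Cox7a1 (3.4442), Cox7a2 (3.4993), Ndufa4 (4.734), Sdhb (0.9859) and Uqcr11 (1.2311), and for 24 over 6 h for Cox4i1 (1.3687), Cox6a2 (-6.4416), Cox7a1 (4.1416) and Cox8a (-1.6471). Cox6a2 turned in control cells at 6 h (2.4337) and 24 h (2.8503). With the added term Uqcrh at 0 h (0.2423), Cox5a (0.1907) and Cox6a2 (-0.7621) at 24 h between genotypes, Ndufs1 at 24 h in KO (0.104) and Cox6a2 at 6 h in control cells (1.6746) turned. The cause was not tested.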

Other observations

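Genes for other mitochondrial functions gave further values, from lists chosen with earlier results known. Of 10 genes for uncoupling, superoxide and the response to low oxygen, 4 were lower in KO than in control cells when unstimulated, 2 at 6 h and 2 at 24 h, and 0 were higher (40%, 20% and 20% lower, against 7.13%, 5.88% and 8.44% of all genes). Sod1, the cytosolic superoxide dismutase, differed by -0.74, -0.91 and -0.67 (limma adjusted p = 0.00019, 1.87e-05 and 0.000572), and Slc25a4, an ADP/ATP carrier of the inner membrane, by -0.45 at both 6 and 24 h. After 24 h of LPS Sod2, the mitochondrial superoxide dismutase, rose by 2.86 in KO (adjusted p = 0.000696) and 1.90 in control cells (adjusted p = 0.0269), and the carrier Slc25a5 fell by 0.70 and 0.89.

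Of 15 regulators of mitochondrial genes 0 were called between KO and control cells at 6 or 24 h and 1, the mitochondrial DNA polymerase Polg, was lower in unstimulated KO cells (6.67% of the list, against 7.13% of all genes; -0.46, limma adjusted p = 0.0329). After 24 h of LPS Myc fell by 1.41 in KO and 1.24 in control cells (adjusted p = 0.000336 and 0.00268), and the mitochondrial transcription factor Tfb2m by 0.66 and 0.81. Esrra, an estrogen-related receptor, rose by 0.46 in KO cells (adjusted p = 0.00451), and Ppargc1b, a coactivator, fell by 1.20 in control cells (adjusted p = 0.0177).

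Of 23 genes for protein import 3 were higher and 0 lower in KO than in control cells after 24 h of LPS (13% higher, against 6.97% of all genes), the small chaperones Timm8a1 (1.42, limma adjusted p = 0.00727), Timm10 (0.87) and Timm10b (0.49). Timm8a1 fell by 1.33 with LPS at 24 h in control cells (adjusted p = 0.0158). Of 76 mitochondrial ribosomal proteins 3, 4 and 0 were lower and 0, 0 and 2 higher in KO at 0, 6 and 24 h; the shares lower were 3.95%, 5.26% and 0%, none above the 7.13%, 5.88% and 8.44% of all genes.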
